A study of Arabidopsis thaliana with 9 samples.

Results

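The transcriptomes of potent and arf7, 2 Arabidopsis lines altered in auxin signalling, were compared directly with each other, without passing through the control. The comparison covers the 12716 loci, 40.9% of the 31124 in the expression table, whose value reached at least 5 FPKM (fragments mapped to a transcript, scaled to its length and to the library total) in either line. Each difference is given as a log2 ratio, log2((potent + 1)/(arf7 + 1)), so a positive value means a higher level in potent.

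RNA came from dissected oscillation zones of 7 dpi roots, 3 samples of potent, 3 of arf7 and 3 of a Col0 control, and DR5::Luciferase, a light-emitting reporter of auxin response, was followed in these plants. The series title ties potent to IAA18, and as background potent is known as a gain-of-function allele of that gene. The labels give the lines as potent and arf7 with no allele number, promoter or ecotype, and give Col0 for the control. Control zones were taken at the minimum of the reporter's oscillation, and no phase is stated for either mutant, so genotype and phase cannot be told apart.

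The oscillation zone lies behind the root tip, and auxin response rises and falls there before sites of future lateral roots are laid down. ARF7 is an auxin response factor, a transcription factor that switches on auxin target genes in this zone. IAA18 belongs to the Aux/IAA proteins, which bind such factors and hold them inactive until auxin, through the TIR1/AFB receptors, marks the repressor for destruction. Both lines are therefore altered at the same step, one in a repressor and the other in an activator, and a direct comparison asks which transcripts of the zone differ between these lesions.

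The authors deposited 1 combined value per locus and genotype. No spread between samples can be computed, the depth is unknown, no test was run, and all differences below describe these 3 profiles. The values summed to 879820 FPKM in potent and 850089 FPKM in arf7, a difference that corresponds to 0.05 on the log2 scale. As a check on the labels, ARF7 (AT5G20730) had 9.35 FPKM in potent, 2.64 in arf7 and 12.0 in the control; it overlaps CPN20, whose reads could not be separated from it by strand. The gene altered in potent, IAA18 (AT1G51950), stood at 21.8 FPKM in potent, 19.1 in arf7 and 10.6 in the control, so the levels of the altered repressor in the mutants were close to each other and both above the control.

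Most transcripts had similar levels in the mutants. The median log2 ratio was 0.01, with a central range (25th to 75th percentile) of -0.37 to 0.42, and 10796 loci (84.9%) lay within 2-fold. At least 2-fold higher in potent were 1168 loci (9.19%) and at least 2-fold lower were 752 (5.91%). At least 4-fold higher were 291 (2.29%) and at least 4-fold lower 188 (1.48%). Every locus listed at 0 in a single mutant counts as at least 4-fold because of the pseudocount; without the 66 at 0 in arf7 and the 58 at 0 in potent, 225 were at least 4-fold higher and 130 lower. These shares are the background for every gene list below. The excess of higher loci lay among genes that are low in the control. Among the 11259 loci with at least 5 FPKM in the control, 562 (4.99%) were at least 2-fold higher in potent and 699 (6.21%) lower.

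**Figure D1:**
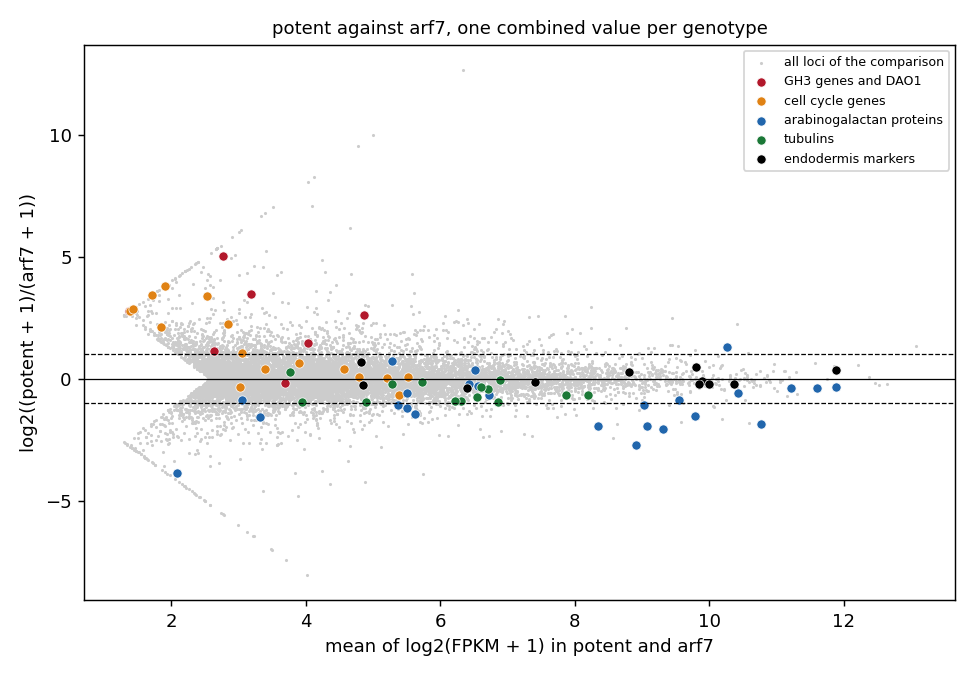
Log2 ratio of potent over arf7 (vertical axis, pseudocount 1) against the mean log2(FPKM + 1) of both mutants (horizontal axis) for all 12716 loci, with 5 gene groups coloured; dashed lines mark 2-fold. Of the genes counted in the text, 6 of 7 for auxin conjugation and oxidation and 8 of 16 of the cell cycle reach the upper line, 22 of 25 arabinogalactan proteins lie below 0, and all 11 endodermis markers lie between the lines.

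The spread of the ratios narrowed with level, and the balance of higher and lower loci differed with gene length. The central range of the log2 ratio was 0.92 wide for loci with a mean of the mutants between 5 and 10 FPKM, 0.68 wide between 20 and 50 FPKM, and 0.53 wide at 500 FPKM or more. Loci with a mean under 5 FPKM are not set beside these, since the minimum lets them in only where the mutants differ. Among protein-coding genes shorter than 1000 bases 180 of 891 were at least 2-fold higher and 91 lower in potent, with a median of 0.17, and among those of 4000 bases or more 61 of 1458 were higher and 64 lower, with a median of -0.10. The part of depth and length in the differences below was not tested. At the minimum, ATL4H (AT4G17905) with 5.00 FPKM in potent and 3.31 in arf7 was just inside the comparison, and GRP23 (AT1G10270) with 4.998 FPKM in potent and 1.503 in arf7 was just outside.

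The sharpest contrast among auxin genes was in the enzymes that remove active auxin. GH3 enzymes attach amino acids to auxin, and their genes are classical early auxin targets. GH3.2 (AT4G37390) had 38.1 FPKM in potent, 0.186 in arf7 and 0.238 in the control, a log2 ratio of 5.04. GH3.1 (AT2G14960) had 29.5 FPKM in potent, 1.74 in arf7 and 0.536 in the control. GH3.5 (AT4G27260) had 71.3 FPKM in potent, 10.7 in arf7 and 2.86 in the control. Potent stood apart from both other genotypes for these 3 genes, and arf7 lay near the control for GH3.2 and between the others for GH3.1 and GH3.5.

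GH3.6 (AT5G54510) had 26.1 FPKM in potent, 8.84 in arf7 and 2.28 in the control. GH3.3 (AT2G23170) had 5.79 FPKM in potent, is listed at 0 in arf7 and had 0.385 FPKM in the control. DAO1 (AT1G14130), which encodes a dioxygenase that oxidises auxin, had 8.29 FPKM in potent, 3.16 in arf7 and 2.23 in the control. GH3.17 (AT1G28130) did not share the pattern, with 11.2 FPKM in potent, 12.9 in arf7 and 20.8 in the control. GH3.4 and GH3.9 are listed at 0 in both mutants.

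Of the 9 listed genes of auxin conjugation and oxidation, 7 reached 5 FPKM in either mutant, and 6 of these (85.7%, against 9.19% of all loci) were at least 2-fold higher in potent. The list median was 2.63, against 0.01 over all loci. GH3.17 is the only member with at least 5 FPKM in the control, so a minimum set on the control leaves 1 gene, at a log2 ratio of -0.19. In the authors' deposited table, GH3.1, GH3.5 and GH3.6 are listed as higher in potent than in control, with log2 fold changes of 5.78, 4.64 and 3.52 and q = 0.00145 each, and no member is listed for arf7. Of all loci 4.75% are listed as higher in potent and 2.85% as higher in arf7.

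Aux/IAA repressor genes, many of which are themselves induced by auxin, were divided. Of 28 in the table, 19 were in the comparison, of which 5 (26.3%, against 9.19%) were at least 2-fold higher and 2 (10.5%, against 5.91%) lower in potent, and their median was 0.04. IAA27 (AT4G29080) had 30.7 FPKM in potent, 6.33 in arf7 and 0.479 in the control. IAA31 (AT3G17600) had 32.4 FPKM in potent, 8.66 in arf7 and 5.24 in the control, and IAA11 (AT4G28640) had 38.1 FPKM in potent, 11.1 in arf7 and 6.78 in the control. All 3 were highest in potent.

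IAA26 (AT3G16500) had 23.0 FPKM in potent and 6.42 in arf7, and IAA19 (AT3G15540) had 31.4 FPKM in potent and 14.7 in arf7. In the other direction, IAA28 (AT5G25890), a repressor known to act in the choice of lateral root founder cells, had 140 FPKM in potent, 289 in arf7 and 157 in the control. IAA12 (AT1G04550) had 6.96 FPKM in potent, 15.4 in arf7 and 12.9 in the control. The abundant members IAA17 (AT1G04250) and IAA9 (AT5G65670) were alike in the mutants, with 444 and 404 FPKM in potent and 491 and 393 in arf7.

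Auxin carriers leaned the other way. Of 15 listed carrier genes 10 were in the comparison. Of these, 3 (30.0%, against 5.91%) were at least 2-fold lower in potent and none was 2-fold higher, with a median of -0.44. LAX3 (AT1G77690), an influx carrier of the cells that overlie lateral root primordia, had 38.9 FPKM in potent, 149 in arf7 and 126 in the control. ABCB19 (AT3G28860), an efflux transporter, had 11.1 FPKM in potent, 29.5 in arf7 and 58.2 in the control. PIN3 (AT1G70940), an efflux carrier, had 5.88 FPKM in potent, 15.6 in arf7 and 12.4 in the control. For LAX3 and PIN3 the arf7 value was the one near the control, and for ABCB19 it lay between.

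AUX1 (AT2G38120), another influx carrier, had 139 FPKM in potent and 107 in arf7. Of 5 receptor genes in the comparison none was past 2-fold: TIR1 (AT3G62980) had 19.5 FPKM in potent and 10.2 in arf7, and AFB2 (AT3G26810) had 26.8 FPKM in potent and 41.7 in arf7. A receptor gene below the minimum in both mutants, AFB1 (AT4G03190), had 0.329 FPKM in potent, 3.56 in arf7 and 81.0 in the control, a log2 ratio of -1.78. Among 15 ARF genes 8 were in the comparison, 2 (25%, against 9.19%) at least 2-fold higher in potent and 1 (12.5%, against 5.91%) lower. ARF7 itself and ARF4 (AT5G60450, 17.36 FPKM in potent and 7.43 in arf7) were at least 2-fold higher in potent, and ARF9 (AT4G23980, 3.32 FPKM in potent and 7.85 in arf7) was lower.

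**Figure D2:**
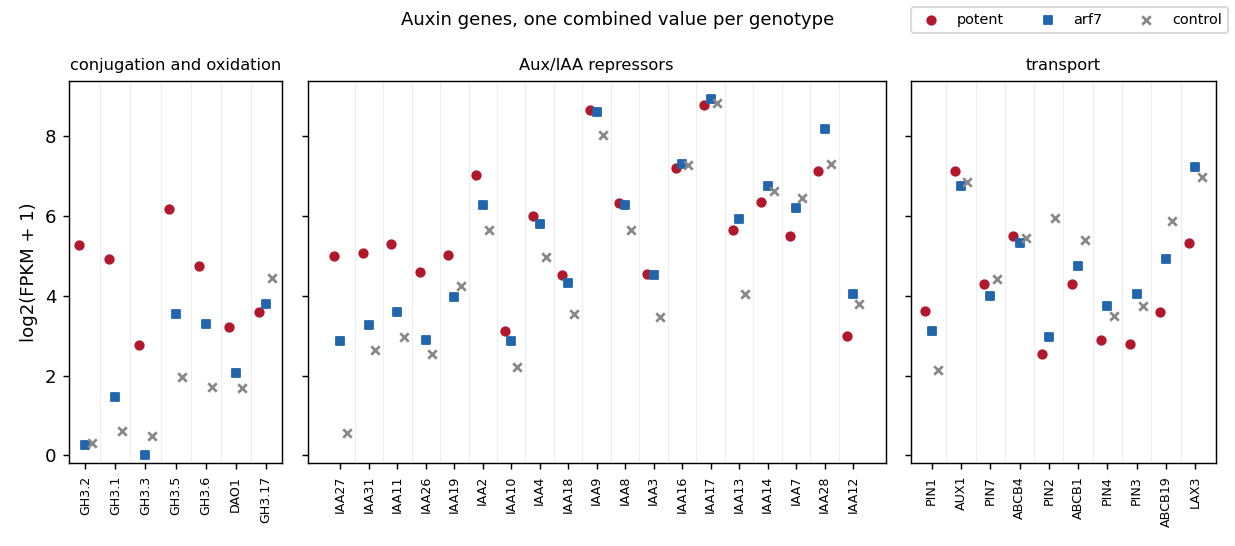
Levels of auxin genes as log2(FPKM + 1) (vertical axis), one combined value per genotype with no error bar, potent as circles, arf7 as squares and control as crosses; genes run from the highest to the lowest log2 ratio within each panel. GH3.2, GH3.1, GH3.5 and GH3.6 show potent above the other genotypes, from 38.1 FPKM against 0.186 in arf7 for GH3.2, while LAX3, ABCB19 and PIN3 show potent lowest.

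Genes of lateral root initiation were mostly higher in potent than in arf7. Of 14 listed genes, 12 had the higher value in potent and 2 in arf7. In the comparison were 7 of them, 6 with the higher value in potent and 1 in arf7, against 50.6% and 49.4% of all loci. Of the 7, 3 (42.9%, against 9.19%) were at least 2-fold higher and none lower, with a median of 0.85. The remaining 7 were below 5 FPKM in both mutants, and CEP5 (AT5G66815) is the only one with at least 5 FPKM in the control, with 73.6 FPKM in potent and 75.2 in arf7.

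LBD33 (AT5G06080), a transcription factor that pairs with LBD18, had 13.3 FPKM in potent, 0.323 in arf7 and is listed at 0 in the control. FLP (AT1G14350), a MYB factor known from stomata that also acts on PIN3 in roots, had 27.1 FPKM in potent, 2.74 in arf7 and 1.56 in the control. MAKR4 (AT2G39370), a membrane-associated regulator of prebranch sites, had 36.8 FPKM in potent, 14.5 in arf7 and 0.25 in the control. FLP overlaps a neighbouring gene, AT1G14360, that went the other way, with 7.52 FPKM in potent and 21.7 in arf7.

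LBD16 (AT2G42430), a direct ARF7 target, was within 2-fold between the mutants, with 49.0 FPKM in potent and 31.2 in arf7, both far above the 1.92 FPKM of the control. GATA23 (AT5G26930), which marks cells set aside to found lateral roots, had 25.3 FPKM in potent and 15.6 in arf7, and LBD29 (AT3G58190) had 12.1 FPKM in potent and 6.28 in arf7. For both genes each mutant lay above the control, which had 4.77 FPKM for GATA23 and a listed 0 for LBD29. Among 5 genes of lateral root emergence in the comparison 1 (20%, against 5.91%) was at least 2-fold lower and none higher. This was EXPA17 (AT4G01630), an expansin of overlying tissue, with 123.1 FPKM in potent, 367 in arf7 and 480 in the control.

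B-type cyclin genes were present at low levels in potent and at or near 0 in arf7, while other mitotic genes were divided. All 7 B-type cyclin genes of the list, which drive entry into mitosis, were higher in potent, with 2.81 to 13.1 FPKM in potent, 0 to 0.113 FPKM in arf7 and 0.103 to 2.48 FPKM in the control. These ranges run over genes with 1 combined value each, and 4 of the 7 are listed at 0 in arf7. Only 3 of the 7 were in the comparison, and they entered through their level in potent. Of all 12716 loci 50.6% had the higher value in potent and 66 are listed at 0 in arf7. CYCB1;3 (AT3G11520) had 13.1 FPKM in potent, is listed at 0 in arf7 and had 0.103 FPKM in the control. CYCB1;4 (AT2G26760) had 5.85 FPKM in potent and 2.48 in the control and is listed at 0 in arf7.

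Genes of B-type cyclin-dependent kinases, partners of these cyclins, were also higher in potent than in arf7, all 4 of them. CDKB2;1 (AT1G76540) had 17.8 FPKM in potent, 0.783 in arf7 and 2.39 in the control, and CDKB2;2 (AT1G20930) had 6.57 FPKM in potent, 0.730 in arf7 and 1.08 in the control. KNOLLE (AT1G08560), the syntaxin of the dividing cell plate, had 9.79 FPKM in potent and 2.69 in the control and is listed at 0 in arf7. AUR1 (AT4G32830), a mitotic Aurora kinase, had 14.7 FPKM in potent, 2.27 in arf7 and 4.78 in the control. Other mitotic members were not near 0 in arf7. CDKB1;1 (AT3G54180) had 10.97 FPKM in potent, 4.74 in arf7 and 13.2 in the control, and AUR2 (AT2G25880) had 11.2 FPKM in potent, 8.10 in arf7 and 5.11 in the control. HINKEL (AT1G18370), a kinesin of cytokinesis, went the other way, with 6.31 FPKM in potent, 8.14 in arf7 and 4.27 in the control. In CDKB2;1, CDKB2;2, KNOLLE and AUR1 arf7 was the lowest of the 3 genotypes and potent the highest. KNOLLE and AUR1 overlap other genes (AT1G08550 and AT4G32840) whose values were lower in potent than in arf7.

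Genes of other cell cycle steps were mixed. Of 5 A-type cyclin genes, which act in replication and early mitosis, 4 had the higher value in potent and none reached 5 FPKM in either mutant. Among them CYCA1;1 (AT1G44110) had 2.92 FPKM in potent, 0.131 in arf7 and 0.359 in the control, and CYCA3;1 (AT5G43080) had 2.74 FPKM in potent, 0.628 in arf7 and 5.10 in the control. The D-type cyclin genes, which act at the start of the cycle, had 1.14 to 46.5 FPKM in potent, 2.40 to 44.0 in arf7 and 0.454 to 48.3 in the control. CDKA;1 (AT3G48750), the kinase used throughout the cycle, had 36.2 FPKM in potent, 35.6 in arf7 and 51.0 in the control. KRP2 (AT3G50630), an inhibitor of these kinases, had 32.6 FPKM in potent and 51.6 in arf7. Replication clamp genes were higher in potent: PCNA1 (AT1G07370) had 25.4 FPKM in potent, 8.55 in arf7 and 19.6 in the control, and PCNA2 (AT2G29570) had 14.3 FPKM in potent, 4.78 in arf7 and 17.2 in the control. For both clamps potent lay near the control and arf7 below it. The 6 MCM helicase genes had 3.29 to 6.36 FPKM in potent and 1.90 to 8.17 FPKM in arf7, with log2 ratios from -0.32 to 0.67.

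Over the whole cell cycle list 32 genes were in the table. Of these, 26 had the higher value in potent and 6 in arf7. Only 16 reached 5 FPKM in a mutant, 14 with the higher value in potent and 2 in arf7, against 50.6% and 49.4% of all loci. Of the 16, 8 (50%, against 9.19%) were at least 2-fold higher in potent and none lower, with a median of 0.86. Since a gene near 0 in arf7 entered only through its level in potent, the count is a description, and 4 of the 8 are listed at 0 in arf7. Among the 11 members with at least 5 FPKM in the control 2 were at least 2-fold higher and none lower, with a median of 0.09. Of all loci with that minimum 4.99% were higher and 6.21% lower. In these whole zones a smaller number of dividing cells and less mitotic RNA per cell cannot be told apart. WOX5 (AT3G11260), a marker of the quiescent centre of root tips, had 8.18 FPKM in potent, 0.767 in arf7 and 0.130 in the control, while the meristem regulators PLT1 and PLT2 are listed at 0 in all 3 genotypes. The part of meristem tissue in the mitotic difference was not tested.

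**Figure D3:**
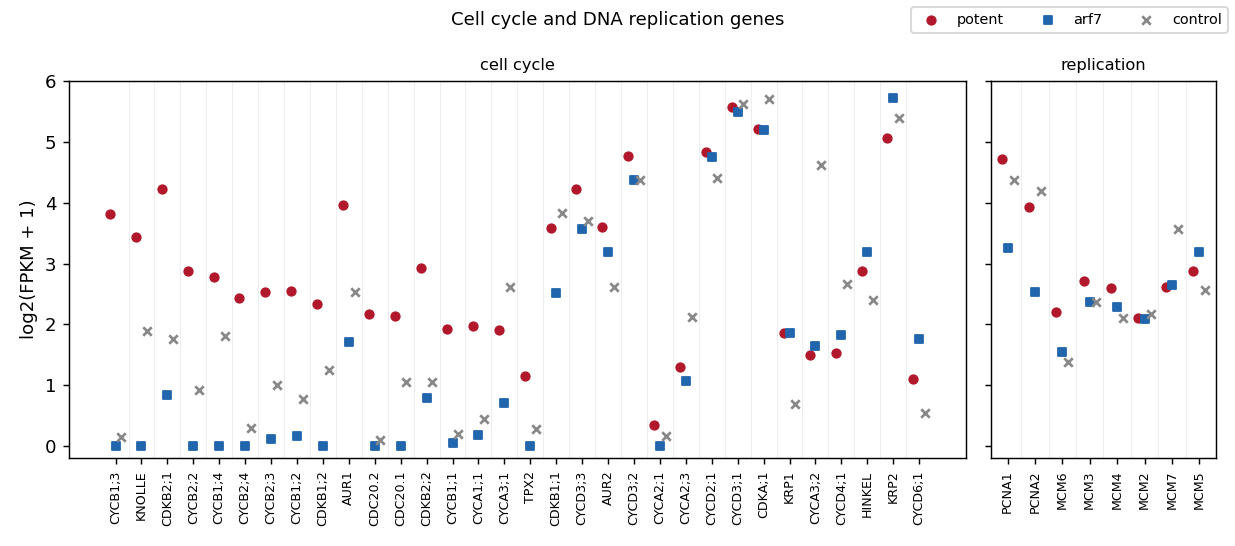
Levels of cell cycle genes (left) and replication genes (right) as log2(FPKM + 1) (vertical axis), one combined value per genotype with no error bar, potent as circles, arf7 as squares and control as crosses. B-type cyclins, CDKB2;1 and KNOLLE lie between 2.81 and 17.8 FPKM in potent and at most 0.783 FPKM in arf7, whereas the symbols of CDKA;1 nearly coincide at 36.2 FPKM in potent and 35.6 in arf7.

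Cell surface glycoproteins were lower in potent. Arabinogalactan proteins are heavily glycosylated proteins of the plasma membrane and wall, and their transcripts are among the most abundant of this zone. Of 30 genes 25 were in the comparison, of which 12 (48.0%, against 5.91%) were at least 2-fold lower and 1 (4.00%, against 9.19%) higher in potent. The lower value was in potent for 22 of the 25, against 49.4% of all loci. The list median was -0.87, and the summed level was 15055 FPKM in potent, 24567 in arf7 and 26561 in the control. With a minimum set on the control the picture held, with 12 of 24 at least 2-fold lower, against 6.21% of all such loci, and a median of -0.96.

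AGP4 (AT5G10430) had 187 FPKM in potent, 1236 in arf7 and 1632 in the control. AGP21 (AT1G55330) had 914 FPKM in potent, 3329 in arf7 and 4690 in the control. AGP7 (AT5G65390) had 273 FPKM in potent, 1053 in arf7 and 1296 in the control. In these 3 genes arf7 lay nearer to the control and potent far below both. AGP4 and AGP21 each overlap a neighbouring locus with a like pattern, AT5G10435 and AT1G55335, and AT1G55335 had 826 FPKM in potent, 2889 in arf7 and 3033 in the control.

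AGP22 (AT5G53250) had 313 FPKM in potent, 1287 in arf7 and 1005 in the control. AGP9 (AT2G14890) had 166 FPKM in potent, 633 in arf7 and 2047 in the control, so it was low in both mutants and lowest in potent. AGP30 (AT2G33790) had 0.104 FPKM in potent, 15.2 in arf7 and 535 in the control. In the comparison only AGP3 (AT4G40090) went past 2-fold in the other direction, with 1924 FPKM in potent, 779 in arf7 and 161 in the control. The abundant members AGP14 (AT5G56540) and AGP24 (AT5G40730) were within 2-fold, with 3370 and 2721 FPKM in potent and 4272 and 3575 in arf7. Genes of this family are short, with a median length of 946 bases, a class in which loci at least 2-fold higher in potent outnumbered lower ones. In the authors' deposited table, among the 25, 8 are listed as lower in potent than in control, against 5.27% of all loci. As lower in arf7 3 of the 25 are listed, against 3.5% of all loci.

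Fasciclin-like arabinogalactan proteins, a related group with an adhesion domain, were split. Of 15 in the comparison, 6 (40.0%, against 5.91%) were at least 2-fold lower and 3 (20%, against 9.19%) higher in potent, with a median of -0.54. FLA9 (AT1G03870) had 208 FPKM in potent, 755 in arf7 and 1218 in the control. FLA2 (AT4G12730) had 135 FPKM in potent, 310 in arf7 and 371 in the control. The 3 higher genes were low in the control: FLA6 (AT2G20520) had 60.8 FPKM in potent, 4.12 in arf7 and 0.387 in the control.

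Tubulin genes, which encode the subunits of microtubules, formed a tighter group. None of 14 passed 2-fold, yet 13 had the lower value in potent, against 49.4% of all loci. The median was -0.65, and the summed level was 1105 FPKM in potent, 1668 in arf7 and 3581 in the control. TUB1 (AT1G75780) had 56.6 FPKM in potent, 109 in arf7 and 345 in the control. TUB4 (AT5G44340) had 233 FPKM in potent, 370 in arf7 and 544 in the control, and TUA6 (AT4G14960) had 187 FPKM in potent, 292 in arf7 and 748 in the control. For each of these 3 the order was potent, arf7, control from low to high. TUA1 (AT1G64740) was the exception, with 14.1 FPKM in potent and 11.4 in arf7. Some tubulin genes are close copies of each other, so reads may be divided uncertainly among those.

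**Figure D4:**
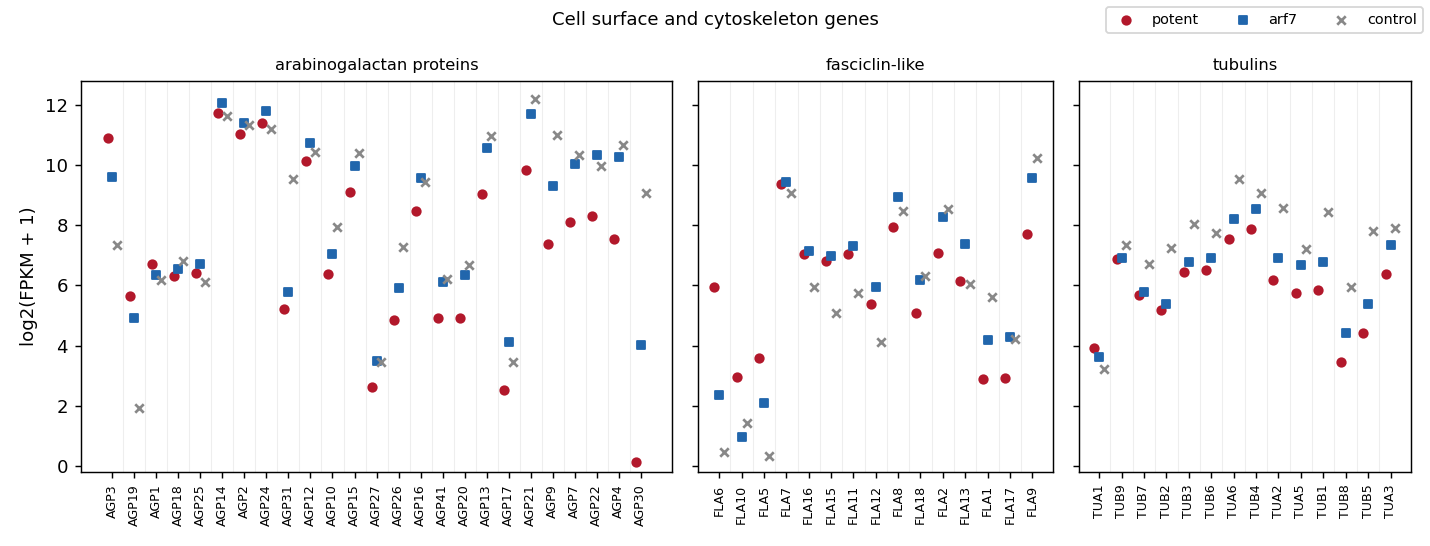
Levels of arabinogalactan protein, fasciclin-like and tubulin genes in the comparison as log2(FPKM + 1) (vertical axis), one combined value per genotype with no error bar, potent as circles, arf7 as squares and control as crosses. Potent lies below arf7 for 22 of 25 arabinogalactan proteins and 13 of 14 tubulins.

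Genes of wall-modifying enzymes differed in both directions. Xyloglucan endotransglucosylase genes, whose enzymes cut and rejoin wall xyloglucan, had 5 members at least 2-fold higher and 5 at least 2-fold lower in potent among 19 (26.3% each way, against 9.19% and 5.91%). XTH26 (AT4G28850), known from root hairs, had 64.4 FPKM in potent, 0.739 in arf7 and is listed at 0 in the control. XTH14 (AT4G25820) had 1324 FPKM in potent, 589 in arf7 and 84.6 in the control. XTH16 (AT3G23730) had 3.78 FPKM in potent, 29.4 in arf7 and 89.1 in the control, and XTH8 (AT1G11545) had 6.63 FPKM in potent, 35.97 in arf7 and 214 in the control. The 5 higher members had 0 to 84.6 FPKM in the control and the 5 lower members 89.1 to 232. Over the whole comparison, too, the excess of higher loci lay among genes low in the control. XTH12 and XTH13 (231 and 144 FPKM in potent, 62.5 and 28.9 in arf7) are near-identical copies.

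Expansins loosen walls. Of 12 alpha-expansin genes in the comparison 1 (8.33%, against 9.19%) was at least 2-fold higher and 3 (25%, against 5.91%) were lower in potent, and of 2 beta-expansin genes 1 was lower. EXPA4 (AT2G39700) had 83.8 FPKM in potent, 9.26 in arf7 and 0.669 in the control. EXPA11 (AT1G20190) had 0.745 FPKM in potent, 19.5 in arf7 and 153 in the control, and EXPB1 (AT2G20750) had 4.76 FPKM in potent, 41.7 in arf7 and 200.2 in the control. The list of class III peroxidases, which cross-link or loosen walls, had 8 higher and 8 lower among 39 (20.5% each way, against 9.19% and 5.91%). Matching was by annotation, and the 8 higher include DOX1 (AT3G01420), which is not of this class, with 26.6 FPKM in potent and 6.63 in arf7. AT1G34510 had 87.5 FPKM in potent, 3.29 in arf7 and 0.333 in the control, and AT2G18980 had 5.86 FPKM in potent, 126 in arf7 and 520 in the control. A pectin methylesterase inhibitor family gene, AT4G25250, had the lowest ratio of all loci above 0 in both mutants, with 1.82 FPKM in potent, 76.8 in arf7 and 208 in the control.

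Most markers of differentiated cells lay within 2-fold, as did 84.9% of all loci. All 11 endodermis markers did, with a median of -0.11. CASP1 (AT2G36100), a scaffold protein of the Casparian strip, had 4255 FPKM in potent, 3353 in arf7 and 1375 in the control, and PER64 (AT5G42180), the peroxidase of the strip, had 1221 FPKM in potent, 1421 in arf7 and 478 in the control. Of 12 xylem markers 11 lay within 2-fold, with a median of -0.19. XCP1 (AT4G35350), a protease of dying vessels, had 261 FPKM in potent, 222 in arf7 and 42.2 in the control. VND6 (AT5G62380), a switch of vessel formation, was the exception, with 5.36 FPKM in potent, 0.472 in arf7 and 1.56 in the control.

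Root hair markers were all in the comparison, and 2 of 10 (20%, against 9.19%) were at least 2-fold higher in potent. PRP1 (AT1G54970), a proline-rich wall protein of hairs, had 386 FPKM in potent, 65.3 in arf7 and 26.5 in the control, and PRP3 (AT3G62680) had 1120 FPKM in potent, 433 in arf7 and 88.5 in the control. The regulators RHD6 (AT1G66470), RSL2 (AT4G33880) and RSL4 (AT1G27740), which start and sustain hair growth, had 6.29, 32.5 and 40.3 FPKM in potent, against 10.9, 60.1 and 40.0 in arf7. None of these regulators was past 2-fold. The expansin genes EXPA7 and EXPA18 of the same list were also within it, with 466 and 430 FPKM in potent and 401 and 282 in arf7. CPC (AT2G46410), which is transcribed in non-hair cells and promotes hair fate in their neighbours, had 31.2 FPKM in potent, 11.05 in arf7 and 31.1 in the control. Of the non-hair regulators GL2 (AT1G79840) had 64.1 FPKM in potent and 60.1 in arf7, and WER and MYB23 were below the minimum in both mutants.

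The 4 phloem markers and the 1 root cap marker in the comparison lay within 2-fold. The other 4 of 5 root cap markers are listed at 0 in both mutants. Green tissue markers leaned toward potent: all 7 in the comparison had the higher value there, against 50.6% of all loci. Of the 7, 2 (28.6%, against 9.19%) were at least 2-fold higher, and the median was 0.68. Their summed level was 206 FPKM in potent, 105 in arf7 and 42.2 in the control. PSBO1 (AT5G66570), of the oxygen-evolving complex, had 61.2 FPKM in potent and 29.4 in arf7, and LHCB1.1, a defining leaf gene, had 0.129 FPKM in potent and 0.162 in arf7. The part of green tissue in other differences was not tested.

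**Figure D5:**
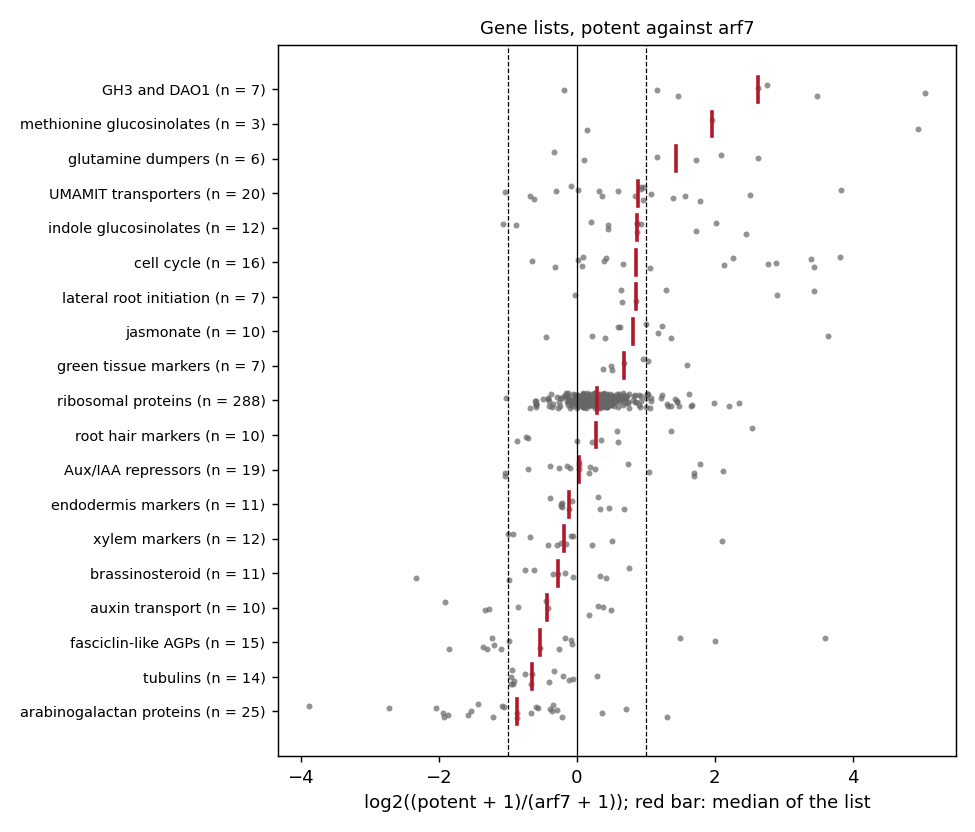
Log2 ratio of potent over arf7 (horizontal axis) for each member of 19 gene lists with at least 5 FPKM in either mutant; each point is a gene, its vertical offset within a row is arbitrary, the red bar is the list median and dashed lines mark 2-fold. Medians run from 2.63 for auxin conjugation and oxidation to -0.87 for arabinogalactan proteins, with endodermis and xylem markers near 0.

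Some amino acid export genes were higher in potent, most of them low in the control. Glutamine dumpers are small membrane proteins known to increase amino acid export, and of 6 in the comparison 4 (66.7%, against 9.19%) were at least 2-fold higher. Of these, GDU6 (5.19 FPKM in potent and a listed 0 in arf7) and GDU7 (6.27 FPKM in potent and 0.708 in arf7) entered only through their level in potent. Of the 2 dumper genes with at least 5 FPKM in the control 1 was higher, against 4.99% of all such loci, with a median of 0.42. GDU4 (AT2G24762) had 196 FPKM in potent, 58.7 in arf7 and 4.38 in the control, and GDU1 (AT4G31730) had 70.0 FPKM in potent, 30.8 in arf7 and 8.66 in the control. GDU3 (AT5G57685) did not follow, with 125 FPKM in potent, 157 in arf7 and 35.4 in the control. Of 20 UMAMIT transporter genes 6 (30.0%, against 9.19%) were at least 2-fold higher and 1 (5.00%, against 5.91%) was lower. The other 13 lay within 2-fold, and the list median was 0.89. UMAMIT20 (AT4G08290) had 81.4 FPKM in potent, 4.80 in arf7 and 0.0106 in the control, and UMAMIT17 (AT4G08300) had 57.8 FPKM in potent, 9.32 in arf7 and 0.157 in the control. Of the 9 UMAMIT genes with at least 5 FPKM in the control none was 2-fold higher and 2 were 2-fold lower. The shares of all such loci were 4.99% and 6.21%, and the median of the 9 was -0.30.

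Glucosinolates are sulphur-containing defence compounds made from amino acids. Of 12 genes for the indole class in the comparison, 10 had the higher value in potent, against 50.6% of all loci. At least 2-fold higher were 3 (25%, against 9.19%). The median was 0.87 (0.90 over the 6 with at least 5 FPKM in the control). IGMT5 (AT1G76790) and CYP81F4 (AT4G37410), which act in sequence to place a methoxy group on the indole ring, had 197 and 136 FPKM in potent, 35.1 and 32.9 in arf7, and 8.63 and 39.2 in the control. CYP81F4 overlaps AT4G37409, which had 184 FPKM in potent, 44.1 in arf7 and 56.9 in the control. IGMT3 (AT1G21110), a related methyltransferase gene, was alike in the mutants, with 51.7 FPKM in potent and 44.5 in arf7, and IGMT2 (AT1G21120) was lower in potent, with 11.3 FPKM in potent and 24.8 in arf7. IGMT1 to IGMT4 are close copies. Of the methionine-derived class 3 of 8 genes were in the comparison and 2 (66.7%, against 9.19%) were at least 2-fold higher in potent. MAM3 (AT5G23020), a chain-elongation enzyme, had 40.4 FPKM in potent and 0.342 in arf7 and is listed at 0 in the control, and CYP79F2 (AT1G16400) had 38.5 FPKM in potent, 9.17 in arf7 and 0.0221 in the control. MYB28 (AT5G61420), a regulator of this class, was alike in the mutants, with 23.5 FPKM in potent and 21.2 in arf7, and none of the 8 reached 5 FPKM in the control.

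Jasmonate genes leaned toward potent as well. JAZ proteins repress jasmonate responses and their genes are induced by the hormone. Of 10 listed JAZ genes, 9 had the higher value in potent and none the lower. Only 8 of the 10 were in the comparison, over which 50.6% of loci were higher and 49.4% lower. JAZ10 (AT5G13220) had 11.5 FPKM in potent and 1.39 in the control and is listed at 0 in arf7. JAZ1 (AT1G19180) had 110 FPKM in potent, 54.5 in arf7 and 29.9 in the control. AOS (AT5G42650), an enzyme of jasmonate synthesis, had 20.18 FPKM in potent, 8.01 in arf7 and 7.87 in the control. Of 10 jasmonate genes in the comparison 5 (50%, against 9.19%) were at least 2-fold higher and none lower, with a median of 0.81. Of the 7 with at least 5 FPKM in the control 2 were at least 2-fold higher, against 4.99% of all such loci.

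Among 11 brassinosteroid genes 8 had the lower value in potent, against 49.4% of all loci, and 1 (9.09%, against 5.91%) was at least 2-fold lower. This was BR6OX1 (AT5G38970) of late synthesis, with 0.896 FPKM in potent, 8.56 in arf7 and 21.2 in the control. Of 12 nitrate and phosphate genes in the comparison 1 (8.33%, against 9.19%) was at least 2-fold higher. This was PHT1;1 (AT5G43350), a phosphate importer, with 319 FPKM in potent and 154 in arf7. None of the 6 circadian clock genes, 6 type-A cytokinin response regulators and 3 iron genes in the comparison was past 2-fold. Of all loci 84.9% lay within it.

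Other lists were counted in the same way, against 9.19% higher and 5.91% lower over all loci. The pectin methylesterase list holds genes of these enzymes, which adjust pectin stiffness, and genes of their inhibitor family, not counted apart. Of 28 in the comparison, 7 (25%, against 5.91%) were lower and 3 (10.7%, against 9.19%) higher in potent. Among the lower was PME2 with 46.2 FPKM in potent, 196 in arf7 and 118 in the control. Aquaporins had 2 (10.5%) lower and 1 (5.26%) higher among 19, and core histones 2 (6.25%) higher among 32. The LBD family had 2 (20%) higher and 1 (10%) lower among 10. In lists with at most 6 members in the comparison, 1 was higher in each of suberin (of 3), triterpene (of 6), abscisic acid (of 6), low oxygen (of 4) and pericycle and stele (of 3), 1 was higher and 1 lower in touch and wounding (of 4), and none of 3 heat genes was past 2-fold.

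Genes annotated to ribosomal protein families were mostly higher in potent by a small amount. The list was matched by annotation, and some members, such as AT4G22380 with 57.0 FPKM in potent and 11.6 in arf7, may not be parts of the ribosome. Of 288 in the comparison 237 had the higher value in potent and 51 the lower, against 50.6% and 49.4% of all loci, and the median was 0.29. At least 2-fold higher were 23 (7.99%, against 9.19%), a share near the background, and 1 (0.347%) was lower. Their summed level was 53856 FPKM in potent, 45268 in arf7 and 96663 in the control. Their median gene length was 1566.5 bases, and protein-coding genes of 1000 to 2000 bases had a median log2 ratio of 0.11. In the authors' deposited table, of these 288 genes, 61 are listed as lower in arf7 than in control, against 3.5% of all loci. As lower in potent 6 of the 288 are listed, against 5.27% of all loci.

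Ranked by log2 ratio among loci above 0 in both mutants, the highest named protein-coding genes were PRP4 (AT4G38770), a proline-rich wall protein, CYP78A5 (AT1G13710), a P450 enzyme that promotes organ growth, XTH26, GH3.2 and MAM3. PRP4 had 215 FPKM in potent, 1.98 in arf7 and 0.0165 in the control. CYP78A5 had 43.7 FPKM in potent, 0.0132 in arf7 and 0.00985 in the control. AT1G28160, of a DNA-binding protein family, had 45.6 FPKM in potent, 0.894 in arf7 and 6.77 in the control. PRP4 overlaps AT4G38775, with 44.2 FPKM in potent and 0.320 in arf7, and without strand their reads cannot be told apart.

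At the other end, GSTU14 (AT1G27140), a glutathione transferase, had 1.09 FPKM in potent, 49.9 in arf7 and 117 in the control. DTA4 (AT1G79760), named as a target of the MADS factor AGL15, had 0.0167 FPKM in potent, 23.4 in arf7 and 23.1 in the control. GH9B13 (AT4G02290), an endoglucanase family gene, had 2.75 FPKM in potent, 53.5 in arf7 and 151 in the control. For GSTU14 and GH9B13 arf7 lay between the others, and for DTA4 it lay near the control. AT4G22217, a defensin-like gene, was instead highest in arf7, with 12.9 FPKM in potent, 209 in arf7 and 128 in the control.

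Among abundant transcripts, MT1A (AT1G07600), a metallothionein that binds metals, had 13728 FPKM in potent, 5421 in arf7 and 1143 in the control. AT3G18280, of a lipid-transfer protein family, had 2989 FPKM in potent, 622 in arf7 and 147 in the control. RHS13 (AT4G02270), named for its root hair expression, had 1894 FPKM in potent, 771 in arf7 and 114 in the control. For all 3 the order was control, arf7, potent from low to high. The abundant genes lower in potent included PIP3 (AT4G35100), a plasma membrane water channel, with 653 FPKM in potent, 2074 in arf7 and 1957 in the control, and RCI2B (AT3G05890), a small cold-induced membrane protein, with 728 FPKM in potent, 1557 in arf7 and 1650 in the control. Both had arf7 near the control. At equal levels were GSTF8 (AT2G47730), a glutathione transferase, with 3444 FPKM in potent and 3442 in arf7, and PBE1 (AT1G13060), a proteasome subunit, with 160.6 FPKM in each.

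The authors compared each mutant with the control and not with each other, so their listing was set beside the called loci. Of the 1168 loci at least 2-fold higher in potent than in arf7, 201 (17.2%, against 4.75% of all loci) are listed as higher in potent than in control and 21 (1.80%, against 3.5%) as lower in arf7. Of the 752 at least 2-fold lower, 175 (23.3%, against 5.27%) are listed as lower in potent and 15 (1.99%, against 2.85%) as higher in arf7. Listed for neither mutant were 947 of the higher and 551 of the lower loci. The called loci were chosen on the potent values that enter these listings, so nothing is read from the shares.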

How the data were processed

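Total RNA of 9 samples, 3 each of potent, arf7 and a Col0 control, was sequenced from libraries made by a cited full-length cDNA protocol, per the labels' protocols. Alignment and quantification tools were Cuffdiff, Cufflinks, TopHat, TopHat2, Bowtie and Bowtie2, with the TAIR10 build, per the submitters' processing notes; versions, roles and settings are not stated (not given in the sources used here). Values deposited by the authors are 1 per genotype, taken as FPKM because those tools make it and the file headers name no unit, with a table of mutant against control with log2 fold changes and q-values. The q-value and log2 columns of the authors' deposited table were copied, not recomputed. Some cells of the log2 column hold text in place of a number, as deposited.

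Log2 ratios used a pseudocount of 1, which understates changes of low genes, and a minimum of 5 FPKM in either mutant. Sizes of 2-fold and 4-fold (log2 of 1 and 2) were used to count loci, and no p-value was computed. A listed 0 can be a failed estimate, so no fold is printed for such a locus, but it enters the counts and medians through the pseudocount. The 33 curated lists and 14 families were matched by locus, or by symbol and product in the RefSeq annotation of TAIR10.1, which named 30847 loci and not 277. Family patterns were tightened to drop enzymes that only act on family members. Members and lists were chosen with earlier results of these data known.

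Named genes were, by a fixed rule, the altered genes, the 12 highest and 12 lowest ratios, the 4 highest per direction at 0 in the other mutant, the 6 most abundant past 2-fold per direction, up to 6 list members per direction past 2-fold and the 2 most abundant within it, and 5 near-equal loci of at least 100 FPKM. Other list members, and the choice among rule genes, were picked after their values were seen. Without strand-marked libraries, overlapping genes are uncertain. The ratio step was tested on simulated data. Python 3.11.15, pandas 2.3.3 and numpy 2.4.6 were used. No sequences or coordinates are printed, as the annotation is of another build.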

Additional observations from a re-analysis of the deposited data

How the results depend on the processing

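Alternatives were 7 planned and 3 added after seeing the data (a minimum of 5 FPKM in the control, in the mean of both mutants, and protein-coding loci only). Under them the median over all loci lay between -0.04 and 0.01. With a pseudocount of 5 the counts were 666 higher and 405 lower at 2-fold, and 113 and 58 at 4-fold. Without a minimum they were 1854 and 1216 at 2-fold. With a minimum of 20 FPKM they were 536 and 323 at 2-fold, and 150 and 80 at 4-fold. With a minimum in the control the higher loci were 562 at 2-fold and 97 at 4-fold, while 699 and 140 were lower. The 4-fold lower count was 124 with a minimum on the mean and 116 among protein-coding loci. These settings changed the number of loci counted or damped low values, and why the counts moved was not tested. The minimum in the control also changed the balance. At 2-fold 4.99% were then higher and 6.21% lower, against 9.19% and 5.91% in the main setting. The median of auxin conjugation and oxidation reversed to -0.19 with a minimum in the control, which leaves 1 member. That minimum also turned the sign of the medians of UMAMIT genes (-0.30), meristem markers (-0.47), lateral root initiation (-0.03), the LBD family (-0.03), low oxygen (-0.23), suberin (-0.18), abscisic acid (-0.21), triterpene (-0.06) and non-hair epidermis (-0.05). Of 465 list medians under alternatives, 362 moved by less than 0.1 and 102 by more. Of 166 named genes past 2-fold, 136 stayed past it with a pseudocount of 5 and 161 with equal sums. The arabinogalactan protein median stayed between -0.98 and -0.66 and that of tubulins between -0.70 and -0.64. No paired analysis was possible because the table holds 1 combined value per genotype, and leaving out each replicate was not run for the same reason. Depth is unknown, so no detection limit was set for the genes listed at 0.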

Other observations

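Small RNAs were past 2-fold more often than protein-coding loci. Small RNA loci are short, 73 bases for AT2G06855, and the libraries were made by a full-length cDNA protocol. The part of length and library type in these differences was not tested. Of 221 snoRNA, miRNA, tRNA and snRNA loci in the comparison 85 (38.5%) were at least 2-fold higher and 54 (24.4%) lower in potent, against 8.53% and 5.31% of protein-coding loci. The snoRNA locus AT2G06855 is listed at 0 in potent, with 262 FPKM in arf7 and a listed 0 in the control, and the snoRNA locus AT4G26365 (chosen after its value was seen) had 271 FPKM in potent, is listed at 0 in arf7 and had 25.5 FPKM in the control.

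Some abundant loci are listed at 0 in a single genotype. In the comparison 58 loci are listed at 0 in potent and 66 in arf7. The extensin-like genes AT1G23720 and AT3G28550 had 1018 and 748 FPKM in potent, are listed at 0 in arf7, and had 647 and 592 FPKM in the control. The 18S ribosomal RNA locus AT3G41768 had 306 FPKM in potent, is listed at 0 in arf7 and had 346 FPKM in the control.

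By nuclear chromosome the share at least 2-fold higher ran from 8.79% on chromosome 5 to 9.54% on chromosome 3, and it was 7.04% of 71 loci of the chloroplast and 5.56% of 18 of the mitochondrion.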
